A study of Rattus norvegicus with 18 samples.

Results

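The BCL-2 family sets the balance between survival and death of a cell at its mitochondria, and 10 of its genes were followed here in the rat sciatic nerve over the first hours after resection. The genes were taken by name, and earlier results of these data were known when they were chosen. They were the pro-survival genes Mcl1, Bcl2l1 (which encodes BCL-XL), Bcl2a1, Bcl2 and Bcl2l2 (which encodes BCL-W), the pro-death effectors Bax and Bak1, and the BH3-only genes Bid, Bcl2l11 (which encodes BIM) and Bad. All 10 were on the array and passed the filter on dim probes, among 27196 gene names that did so. They were carried by 19 probes, of which 18 were tested. Proximal sciatic nerve of adult male Sprague-Dawley rats weighing 180 to 220 g was taken uninjured (0 h) or at 1 of 5 times after a segment of the nerve had been cut out of the left hind limb. These times were 0.5 h and 1 h, then 3 h and 6 h, and last 9 h. The labels name no agent besides the anaesthetic, which all groups share. Each time-point was measured on 3 Agilent arrays of 1 colour, 18 in all. The labels speak of 30 rats and the methods of 36, and neither says whether an array holds RNA of 1 rat or of several, so that P-values measure the spread between arrays, which may be in part technical.

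Proteins of the family share short stretches called BH domains. The pro-survival proteins hold the effectors BAX and BAK in check, the effectors when freed make holes in the outer mitochondrial membrane, and cytochrome c then leaks out and switches on caspases. The BH3-only proteins carry the signal. BIM and BID, the latter after cleavage, bind pro-survival proteins and can activate the effectors, while BAD binds BCL-2, BCL-XL and BCL-W and is itself held by 14-3-3 proteins when phosphorylated. MCL-1 turns over within a short time, and BCL2A1 is best known from blood cells, where NF-κB drives it. In nerve, Schwann cells, fibroblasts, vessels and resident macrophages all express members of the family, and blood cells that enter after injury bring their own.

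An array probe is a DNA strand of 60 bases that binds the labelled copy of 1 transcript. Levels are given as log2 signal relative to the 75th percentile of the array, so that a value of 0 stands for a spot as bright as that percentile and a difference of 1 for a change of 2-fold. A level is compared here only with that of the same probe. The probe with the highest mean is reported for each gene, and other probes are given beside it. Probe sequences are shown for 6 of the genes, as the places where Bcl2l1 and Bad were read by more than 1 probe and where Bcl2a1, Bid, Bax and Bcl2l11 were read, with a start codon in capitals where the probe holds one.
Bcl2l1, start codon probe: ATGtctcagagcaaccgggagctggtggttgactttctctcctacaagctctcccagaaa
Bcl2l1, coding probe: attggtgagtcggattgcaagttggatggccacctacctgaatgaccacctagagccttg
Bad, start codon probe: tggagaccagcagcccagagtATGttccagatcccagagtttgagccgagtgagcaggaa
Bcl2a1: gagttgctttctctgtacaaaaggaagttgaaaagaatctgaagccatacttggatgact
Bid, second probe: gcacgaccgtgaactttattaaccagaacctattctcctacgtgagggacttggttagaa
Bax, second probe: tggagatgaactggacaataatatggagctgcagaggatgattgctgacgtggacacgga
Bcl2l11: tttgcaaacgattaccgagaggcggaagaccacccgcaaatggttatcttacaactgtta
The first Bcl2l1 probe opens on the start codon of the gene.

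Calls rest on limma's moderated test. They needed P under 0.01 before adjustment and under 0.05 after Benjamini-Hochberg adjustment across every tested probe, and 1 such probe sufficed for a gene. When all 6 time-points were tested together (F-test), 8 of the 10 genes were called, all but Bcl2 and Bcl2l2, against 36.3% of all gene names and 41.3% of those with a listed symbol. Against 0 h, 2 genes were called at 0.5 h (Mcl1 higher, Bad lower), where 6.61% of all gene names were called. At 1 h only Mcl1 was called (6.09% of gene names). At 3 h 4 genes were called (14.8% of gene names), of which Mcl1, Bcl2l1 and Bid were higher (7.7% of gene names) and Bad was lower (7.07%). At 6 h there were 5 (26.4% of gene names), with Mcl1, Bid, Bcl2a1 and Bcl2l11 higher (13.1%) and Bad lower (13.5%). Bcl2l11 passed the filter on dim probes only through 6 h and 9 h, where it was high, and with probes well above background on all 18 arrays it was not tested, 4 genes were called at 6 h and 7 in the F-test. At 9 h there were 6 (32.7% of gene names), with Mcl1, Bid, Bcl2a1, Bax and Bcl2l2 higher (17%) and Bad lower (15.9%). In bulk tissue a change in the number of cells of a type and a change in the RNA of each cell cannot be told apart.

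Scanning took 3 days. The first held the 0 h and 0.5 h arrays, the last held replicate 3 of 9 h, and every other array fell on the day between, called the second scan day here, so that time and scan day cannot be told apart in a comparison of 1 h or later with 0 h. Comparisons within the second day, from 1 h to 6 h, were therefore made too. Each slide held arrays of 1 time-point, so that slide and time are not separated within a scan day either. From 1 h to 3 h 5 genes rose (Mcl1, Bcl2l1, Bcl2a1, Bak1 and Bid) and none was called lower, where 11% of all gene names were called. From 1 h to 6 h 5 genes were called, all higher (Mcl1, Bcl2a1, Bak1, Bid and Bcl2l11), against 25.7% of gene names. Bcl2l11 was well above background on no array of 1 h and is in this count only through the groups where it was high. From 3 h to 6 h Bcl2a1 rose and Bcl2l1 fell (5.86% of gene names called). From 6 h to 9 h, a comparison that takes in the last scan day, limma called none of the 10 genes and 0.0147% of gene names, while 2 of the 10 had an unadjusted P-value under 0.05, as 1 did after normexp background correction, which called none either. Replicate 1 of 6 h stood apart, with 93.5% of its spots well above background against 65.9% to 86.4% on the other 17 arrays. Without it, 5 genes were called at 6 h against 0 h. From 1 h to 6 h Mcl1 and Bcl2l11 were then no longer called, and Bcl2l1 was called lower by the probe on its start codon (-0.80; limma, adjusted P = 0.0421). With all arrays the reported Mcl1 probe rose by 0.42 from 1 h to 6 h (SE 0.14; limma, adjusted P = 0.0376). That call held in 16 of 32 other settings, with differences of 0.35 to 0.47. Arrays of 1 time-point correlated with each other at 0.9579 to 0.993.

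**Figure D1:**
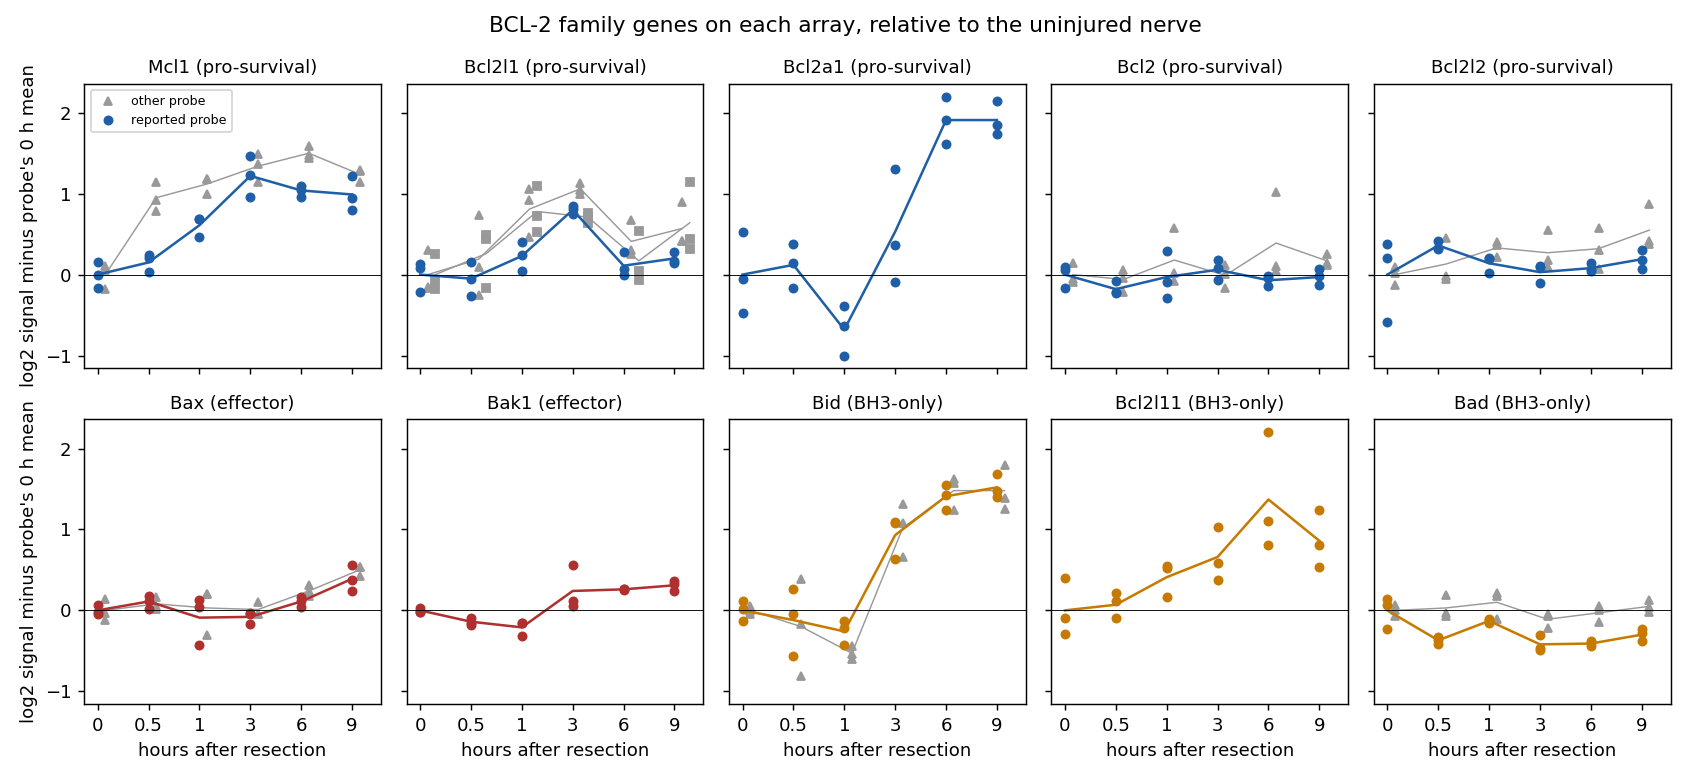
Log2 signal of each tested probe on each array, minus the mean of that probe at 0 h, against hours after resection (time-points evenly spaced, lines through the means, coloured circles for the reported probe, grey triangles and squares for other probes, drawn a little to the right). Mcl1, Bid and Bcl2a1 ended well above 0 h, Bcl2l1 peaked at 3 h in its reported probe, and the reported probe of Bcl2 stayed near its starting level, while its grey probe was higher on 1 array of 1 h and 1 of 6 h.

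Mcl1 was the pro-survival gene called earliest, at 0.5 h by the second of its probes. The log2 signal of its reported probe was 2.79, 2.63 and 2.46 on the arrays of 0 h and 2.83, 2.66 and 2.87 at 0.5 h. It was 3.09, 3.32 and 3.32 after 1 h and 3.59, 3.86 and 4.09 after 3 h. It was 3.72, 3.59 and 3.68 after 6 h and 3.58, 3.43 and 3.85 after 9 h. Every array from 1 h on lay above every array of 0 h, whereas those of 0.5 h overlapped with them. The difference from 0 h was 0.62 ± 0.14 (SE) at 1 h (limma, adjusted P = 0.021) and 1.22 ± 0.14 after 3 h, a change of 2.33-fold (limma, adjusted P = 7.53e-05). It was 1.04 ± 0.14 after 6 h and 1.00 ± 0.14 after 9 h. Within the second scan day the level rose by 0.60 ± 0.14 from 1 h to 3 h (limma, adjusted P = 0.0141), which was lost without replicate 1 of 1 h or replicate 3 of 3 h. It was also lost with normexp (0.44; limma, adjusted P = 0.536) and on the 6 arrays of the comparison alone (limma, adjusted P = 0.131). In the reported probe the rise at 1 h was not called without replicate 2 or 3 of 0 h or of 1 h (0.54 to 0.62), nor with normexp (0.51; limma, adjusted P = 0.324).

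A second Mcl1 probe, which lies 224 bases away on the unplaced part of chromosome 2 in the rn4 build, went up sooner. Its log2 signal was 0.21, 0.16 and -0.08 at 0 h and already 1.25, 0.89 and 1.02 at 0.5 h. Every later array lay above every array of 0 h. The difference was 0.96 ± 0.12 (SE) at 0.5 h, within the first scan day (limma, adjusted P = 0.000565), 1.12 after 1 h, 1.34 after 3 h, 1.51 after 6 h and 1.24 after 9 h. From 1 h to 3 h this probe changed by 0.22 ± 0.12 and was not called (limma, adjusted P = 0.288). Both probes thus gave a higher Mcl1 signal from 1 h to 9 h, and they differed at 0.5 h, where the reported probe moved by 0.16 ± 0.14. That difference between probes was not tested.

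Bcl2l1 was highest at 3 h in its reported probe. This probe, which lies at chr3:143129343-143129402 in rn4, had a log2 signal of 2.66, 2.61 and 2.31 at 0 h, 2.69, 2.27 and 2.48 after 0.5 h and 2.93, 2.58 and 2.77 after 1 h. It was 3.38, 3.28 and 3.34 after 3 h, above all other arrays, and then 2.81, 2.6 and 2.52 after 6 h and 2.70, 2.81 and 2.67 after 9 h. The level at 3 h was 0.81 ± 0.13 (SE) above 0 h, or 1.75-fold (limma, adjusted P = 0.00105), and it fell by 0.69 from 3 h to 6 h (SE 0.13; limma, adjusted P = 0.0101). At 6 h and 9 h the differences from 0 h were 0.11 ± 0.13 and 0.20 ± 0.13 and were not called. With normexp the difference at 3 h was 0.54 and was not called (limma, adjusted P = 0.163), nor were the changes from 1 h to 3 h (0.41) and from 3 h to 6 h (-0.48), which were also lost on the 6 arrays of the comparison alone.

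The start codon and coding probes of Bcl2l1 printed above lie 49.2 kb and 48.7 kb from the reported one. The start codon probe was 0.78 ± 0.24 (SE) above 0 h at 1 h and 0.71 ± 0.24 after 3 h, and neither difference was called (limma, adjusted P = 0.0749 and 0.0674). The coding probe was 0.81 ± 0.24 above 0 h at 1 h, which was not called, and 1.06 ± 0.24 after 3 h, which was (limma, adjusted P = 0.0101). The arrays of 3 h lay above those of 0 h in all 3 probes, with no overlap. The arrays of 9 h also lay above those of 0 h without overlap in the start codon probe (0.64 ± 0.24; limma, adjusted P = 0.0519) and the coding probe (0.57 ± 0.24; limma, adjusted P = 0.0759), though neither was called. Nor were their changes from 3 h to 6 h, which were -0.54 and -0.65. A probe in 10 spots that lies 47.8 kb from the reported one was well above background on 2 of 18 arrays and was not tested.

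Bcl2a1 moved late, and its difference from 0 h in the reported probe was the largest among the 10 genes. Its probe, at chr8:94045244-94045303 in rn4 and named Bcl2a1d in the files, had a log2 signal of -3.55, -3.13 and -2.55 at 0 h and -3.24, -2.94 and -2.70 after 0.5 h. It was -4.08, -3.47 and -3.71 after 1 h and -3.17, -2.71 and -1.77 after 3 h. It was -1.17, -1.46 and -0.88 after 6 h and -1.34, -1.23 and -0.93 after 9 h. All 6 arrays of 6 h and 9 h lay above all others, and replicate 3 stood highest at 3 h. The difference from 0 h was 1.91 ± 0.32 (SE) at both 6 h and 9 h, a change of 3.75-fold (limma, adjusted P = 0.000849 and 0.000617). With normexp both differences were 1.48 and neither was called (limma, adjusted P = 0.0732 and 0.057). Within the second scan day it rose by 1.20 ± 0.32 from 1 h to 3 h, which was lost without replicate 3 of 3 h (0.81; limma, adjusted P = 0.123), and likewise without its replicate 2 (1.28) and without the first or the third array of 1 h (1.04 and 1.23). It rose further, by 1.38 ± 0.32, from 3 h to 6 h (limma, adjusted P = 0.0274), a call lost without replicate 1 or 2 of 3 h and without replicate 1 or 3 of 6 h.

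Markers of neutrophils moved over the same hours. The summed signal of 11 tested neutrophil markers, where the 75th percentile of an array counts as 1, was 3.94 to 5.5 at 0 h, 5.63 to 8.54 after 0.5 h, 5.5 to 7.34 after 1 h, 12 to 28.6 after 3 h, 22.2 to 33.3 after 6 h and 27.2 to 37.5 after 9 h. All 11 were called in the F-test, but only 7 to 9 of them were well above background on all arrays of a time-point up to 1 h, so that some could enter the test through the later groups. S100a8, whose product is abundant in neutrophils, differed from 0 h by 6.12 in log2 signal after 9 h. At 3 h replicate 3 had the highest neutrophil sum and the highest Bcl2a1 signal, and also the highest sum of macrophage markers (275 against 245 and 249). That array had 82.3% of its spots well above background, against 71.1% and 70.3% on the other arrays of 3 h. Of 10 macrophage markers 8 were called in the F-test. Their summed signal, in which bright genes weigh most, was 194 to 226 at 0 h and 230 to 255 after 0.5 h. It was 225 to 255 after 1 h, 245 to 275 after 3 h, 222 to 255 after 6 h and 236 to 267 after 9 h. Gene by gene, 3 were called higher and 1 lower at 6 h (13.1% and 13.5% of all gene names). At 9 h 4 were called higher and 1 lower (17% and 15.9%). Their median difference from 0 h was -0.29 at 1 h, -0.02 at 6 h and 0.14 at 9 h. From 1 h to 6 h it was 0.36. Of 11 Schwann cell markers, well above background on all arrays, 6 were called, where the share of all gene names is 36.3%, and their sum went from between 857 and 1020 at 0 h to between 676 and 771 after 9 h. The part of such cells in the changes of the family was not tested.

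**Figure D2:**
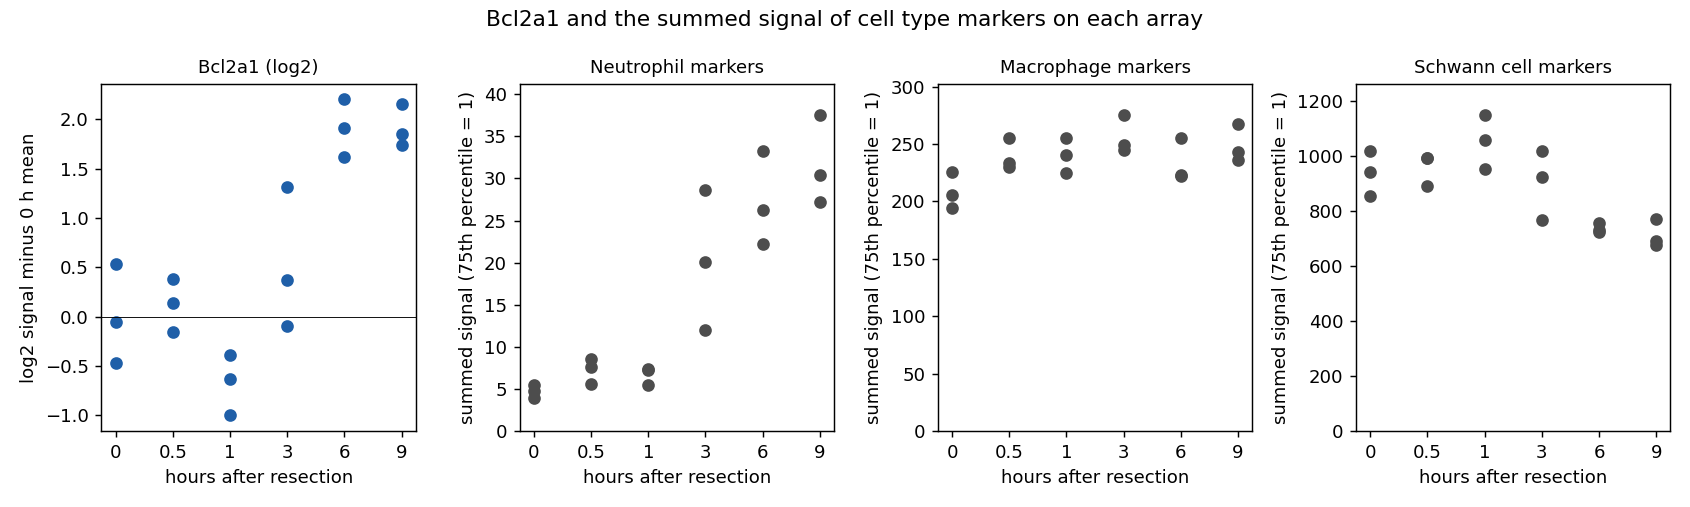
Log2 signal of Bcl2a1 minus its mean at 0 h (left) and summed signal of neutrophil, macrophage and Schwann cell markers (75th percentile of the array = 1), 1 point for each of the 3 arrays of a time-point. The neutrophil sum rose from 3.94 to 5.5 at 0 h to 27.2 to 37.5 at 9 h, and Bcl2a1 was highest at 6 h and 9 h.

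Bcl2, the founding member of the family, was called by neither of its probes in any comparison. Its reported probe ranged from -2 to -1.42 in log2 signal over the 18 arrays, and its differences from 0 h lay between -0.17 ± 0.13 (SE) at 0.5 h and 0.06 ± 0.13 at 3 h (F-test, limma, adjusted P = 0.649). The other Bcl2 probe ranged from -4.56 to -3.33, where the highest values were those of replicate 1 of 6 h and replicate 3 of 1 h (-3.77) (F-test, limma, adjusted P = 0.447). Bcl2l2 gave different pictures by probe. The reported probe was 1.76, 2.55 and 2.73 at 0 h and 2.53, 2.65 and 2.42 after 9 h and was not called. Its lowest array, replicate 1 of 0 h, was also the one with the highest skeletal muscle signal, a summed signal of 1260 against 72.5 and 106 on the other arrays of 0 h. The second Bcl2l2 probe rose by 0.55 ± 0.18 from 0 h to 9 h (limma, adjusted P = 0.0264), a call that was lost without replicate 3 of 9 h (0.40; limma, adjusted P = 0.124) and also without any 1 array of 0 h or replicate 3 of 6 h.

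The effectors moved little. Bax had a log2 signal of 3.34, 3.37 and 3.46 at 0 h and of 3.76, 3.63 and 3.95 at 9 h in its reported probe, which the files describe as a splice variant. The arrays of 9 h lay above those of 0 h, by 0.39 ± 0.13 (SE), or 1.31-fold (limma, adjusted P = 0.0288). This call did not hold in 20 of 31 other settings, though the difference stayed between 0.31 and 0.43 in 19 of them and was 0.22 with a shift of each array to its median. It was lost with any 1 array of 0 h left out (0.37 to 0.43), and it was larger, and called, after quantile normalization (0.54). The second Bax probe, in 10 spots, was 1.13, 1.04 and 1.30 at 0 h and 1.70, 1.59 and 1.70 after 9 h, a difference of 0.50 ± 0.12 (limma, adjusted P = 0.00637). At 0.5 h, 1 h, 3 h and 6 h neither probe was called, with differences from 0 h between -0.08 and 0.25.

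Bak1 had a log2 signal of 2.40, 2.35 and 2.35 at 0 h, 2.22, 2.22 and 2.05 after 1 h, 2.49, 2.43 and 2.93 after 3 h, 2.64, 2.62 and 2.64 after 6 h and 2.70, 2.61 and 2.73 after 9 h. The arrays of 3 h, 6 h and 9 h all lay above those of 0 h and those of 1 h below. Against 0 h no time-point was called, and the difference at 9 h, 0.31 ± 0.11 (SE), passed the second limit but not the first (limma, adjusted P = 0.042, unadjusted P = 0.014). After quantile normalization Bak1 was called higher at 6 h (0.34; limma, adjusted P = 0.0279) and 9 h (0.39; limma, adjusted P = 0.0102), as it was in the deposited matrix. Within the second scan day the level at 6 h was 0.47 ± 0.11 above that at 1 h (limma, adjusted P = 0.00655). From 1 h to 3 h it rose by 0.45 ± 0.11 (limma, adjusted P = 0.0186), which was lost without replicate 3 of 3 h or replicate 3 of 1 h.

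Among the BH3-only genes Bid rose from 3 h on. Its reported probe was -2.11, -2.02 and -2.26 at 0 h, -2.18, -2.70 and -1.87 after 0.5 h and -2.56, -2.26 and -2.35 after 1 h. It was -1.50, -1.04 and -1.05 after 3 h, -0.58, -0.89 and -0.70 after 6 h and -0.66, -0.73 and -0.44 after 9 h. All arrays of 3 h and later lay above all earlier ones. The difference from 0 h was 0.94 ± 0.19 (SE) at 3 h, 1.41 ± 0.19 after 6 h and 1.52 ± 0.19 after 9 h, or 2.87-fold (limma, adjusted P = 0.0046, 0.000131 and 5.35e-05). The files name this probe Bid but describe it as desmocollin type 4. The second Bid probe, printed above and described as Bid, lies 2.02 kb away on chromosome 4 and differed from 0 h by 1.02 ± 0.25 after 3 h, 1.48 ± 0.25 after 6 h and 1.47 ± 0.25 after 9 h, called each time. Within the second scan day, from 1 h to 6 h, the reported probe rose by 1.67 ± 0.19, or 3.18-fold (limma, adjusted P = 4.55e-05), and the second by 2.01 ± 0.25, or 4.02-fold (limma, adjusted P = 9.92e-05).

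Bcl2l11 was dim. Its probe was well above background on 1 array of 0 h, on none of 0.5 h or 1 h, on 1 of 3 h and on all arrays of 6 h and 9 h. Its log2 signal was -6.17, -6.67 and -6.86 at 0 h, -4.37, -5.76 and -5.46 after 6 h and -6.04, -5.76 and -5.33 after 9 h. The fitted difference at 6 h was 1.37 ± 0.31 (SE; limma, adjusted P = 0.00548), against a group with 1 of 3 arrays well above background, and without replicate 1 of 6 h it was 0.95 (limma, adjusted P = 0.018). With normexp background correction it was 0.29 (limma, adjusted P = 1). Since the probe entered the test only through 6 h and 9 h, these values describe it and support no rise. At 9 h it was 0.86 ± 0.31 and was not called (limma, adjusted P = 0.0456, unadjusted P = 0.0157). Against 1 h, where no array was well above background, the level at 6 h was at least 1.25-fold higher, taking for each array of 1 h the higher of the probe's own signal and the dimmest signal well above background. That bound rests on replicate 1 of 6 h, without which the mean of 6 h (-5.61) lay below the floor used for 1 h (-5.52). The fitted difference from 1 h was 0.96 ± 0.31 (limma, adjusted P = 0.0349) and was lost without replicate 1 of 6 h (0.55; limma, adjusted P = 0.139), as well as without any 1 array of 1 h and without 5 single arrays of other times.

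Bad was the only one of the 10 genes called lower against 0 h. The reported probe was 2.15, 2.52 and 2.45 at 0 h, 2.02, 2.05 and 1.96 after 0.5 h, 2.27, 2.26 and 2.23 after 1 h, 2.07, 1.92 and 1.89 after 3 h, 1.94, 1.98 and 2 after 6 h and 2, 2.1 and 2.15 after 9 h. The signal fell by 0.36 at 0.5 h, on arrays of 1 scan day (SE 0.09; limma, adjusted P = 0.0371). Against the uninjured nerve it fell by 0.42 at 3 h (limma, adjusted P = 0.00928) and fell by 0.40 at 6 h (limma, adjusted P = 0.00629). After 9 h the difference was -0.30 (limma, adjusted P = 0.0251). At 1 h, where it differed by -0.12, it was not called. The calls at 3 h and 6 h were lost with normexp (-0.58 and -0.37; limma, adjusted P = 0.0523 and 0.201) and on the 6 arrays of the comparison alone. So were those at 0.5 h and 9 h, where normexp gave -0.37 and -0.32 (limma, adjusted P = 0.616 and 0.258). From 1 h on the reported probe differed by -0.30 at 3 h and by -0.28 at 6 h, without overlap, and neither was called (limma, adjusted P = 0.0597 and 0.0415, the latter missing the limit on the unadjusted P), though they were in 5 and 7 other settings, array weights among them. The call at 0.5 h was lost after quantile normalization (-0.30), in the deposited matrix (-0.29) and without replicate 2 or 3 of 0 h (-0.29 and -0.32), any 1 array of 0.5 h or replicate 2 of 6 h. The call at 9 h was lost without replicate 2 or 3 of 0 h (-0.22 and -0.26) or replicate 1 or 2 of 9 h (-0.25 and -0.30), and also after quantile normalization (-0.22) and in the deposited matrix (-0.21). The start codon probe of Bad, printed above, lies 8.52 kb away and gave no such fall. It was 0.34, 0.42 and 0.48 at 0 h and 0.36, 0.19 and 0.34 after 3 h, and its differences from 0 h ran from -0.11 ± 0.11 to 0.10 ± 0.11, none of them called. The files thus hold a fall of Bad in 1 of its 2 probes, and the difference between the probes was not tested.

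**Figure D3:**
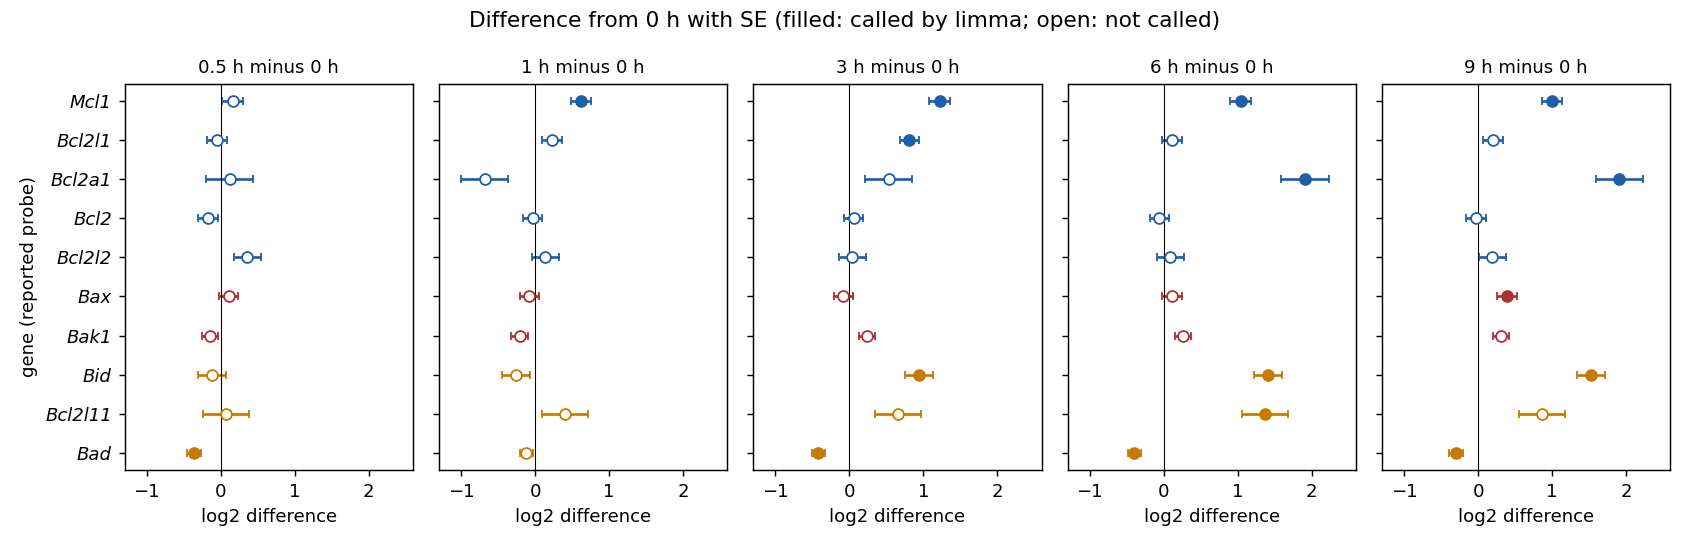
Difference of each time-point from 0 h in log2 signal for the reported probe of each gene, with the SE of limma's fit over 18 arrays (filled points were called, open points were not). Mcl1 was called from 1 h, Bid from 3 h and Bcl2a1 at 6 h and 9 h, each 1.91 above 0 h, while every point of Bcl2 was unfilled.

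The scaling of an array cancels when a pro-survival and a pro-death gene are compared on the same array, and such differences were followed as changes from their mean at 0 h. With 3 arrays against 3 the exact two-sided permutation test cannot go below P = 0.1, so these are descriptions. Mcl1 minus Bak1 was 0.13, 0.02 and -0.15 at 0 h, 0.61, 0.85 and 1.01 after 1 h, 0.85, 1.17 and 0.91 after 3 h and 0.63, 0.57 and 0.87 after 9 h. From 1 h on no array overlapped with those of 0 h (exact permutation P = 0.1 at each time). Bcl2l1 minus Bax was 0.89, 0.93 and 0.84 after 3 h and -0.20, 0.04 and -0.42 after 9 h, against 0.18, 0.10 and -0.28 at 0 h. It stood apart from 0 h at 3 h alone. Bcl2 minus Bax was -0.11, 0.11 and 0.00 at 0 h and -0.50, -0.26 and -0.50 after 9 h, lower on all 3 arrays (exact permutation P = 0.1), and it was also lower without overlap at 0.5 h and 6 h, though with normexp the arrays of 6 h overlapped with those of 0 h (-0.14; exact permutation P = 0.2).

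**Figure D4:**
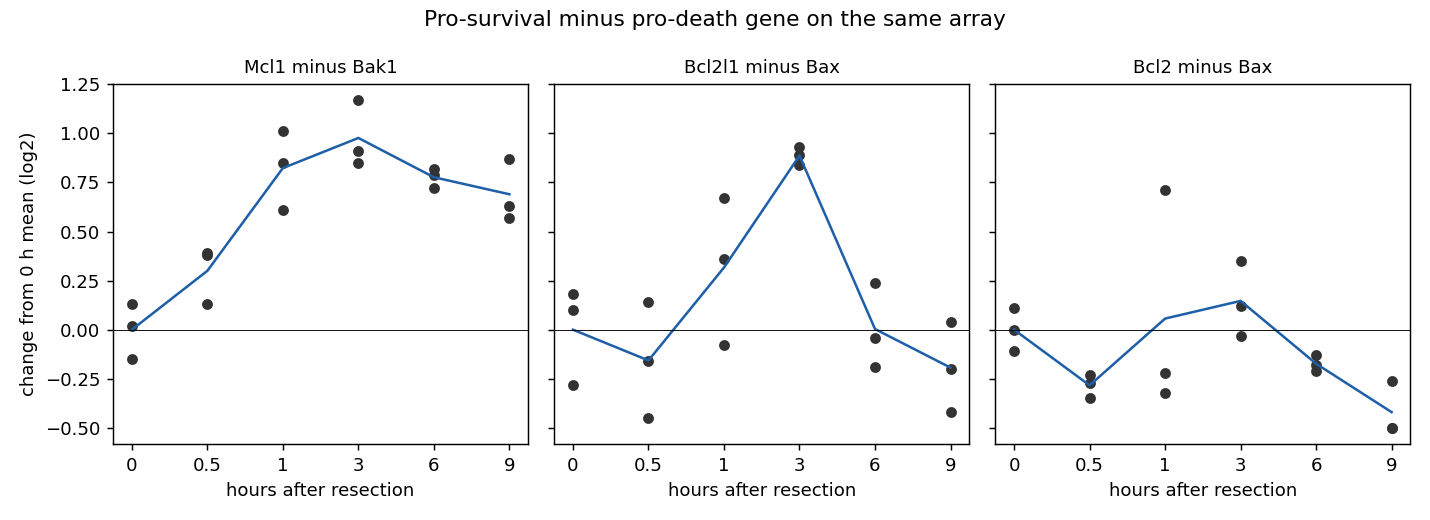
Log2 signal of a pro-survival gene minus that of a pro-death gene on the same array, as change from the mean at 0 h, with 1 point for each array and a line through the means. Mcl1 minus Bak1 averaged 0.82 at 1 h and 0.69 at 9 h, Bcl2l1 minus Bax averaged 0.89 at 3 h and -0.19 at 9 h, and Bcl2 minus Bax averaged -0.42 at 9 h.

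Other genes of the family and its partners were read from lists. Of 14 tested further relatives of BCL-2 3 were called in the F-test, namely Hrk, Bnip3 and Bnip3l, and at 9 h these were also the 3 called, all lower than at 0 h. Both shares, 3 of 14, lie below those of all gene names (36.3% and 32.7%). Hrk, a BH3-only gene known from neurons, differed by -1.77 on the log2 scale, Bnip3 by -0.64 and Bnip3l by -0.59, and the last 2 are known for their part in the removal of mitochondria. The median difference of this list at 9 h was -0.14, against 0.01 over all genes tested. Bbc3, which encodes the BH3-only protein PUMA, was called lower at 1 h (-0.86) and at no other time, and Bcl2l12 was called higher at 1 h (0.42). Of 14 mitochondrial partners and released factors 4 were called in the F-test. At 9 h 2 were higher (17% of all gene names) and 2 lower (15.9%), with a median of -0.06. At 6 h 5 were called (26.4% of all gene names), with 2 higher (13.1%) and 4 lower (13.5%) by 1 probe or another and a median of -0.20. Their summed signal was 272, 204 and 199 on the arrays of 0 h, highest on replicate 1, which also held the most muscle signal, and 187 to 205 at 6 h. The part of muscle in this was not tested. Among them Endog, a nuclease of mitochondria, differed by -0.73 after 3 h, Vdac3, a channel of the outer membrane, by -0.53 after 9 h, and Slc25a5, an ADP/ATP carrier, by 0.40 after 9 h. Cycs, the gene of cytochrome c, was not called.

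Of 13 tested regulators of BAD and MCL-1 6 were called in the F-test. At 9 h 4 were higher (17% of all gene names) and 1 lower (15.9%), with a median of 0.03. The kinases Pim1 and Pim3, which can phosphorylate BAD, were already higher at 0.5 h. Pim1 was then 1.26 above 0 h and 1.63 after 6 h, and Pim3 was 0.92 above and 1.18 after 3 h, all called. Ywhag, a 14-3-3 gene, was 0.51 higher at 9 h, and Usp9x, whose product removes ubiquitin from MCL-1, was 0.43 lower (a difference of -0.43). Pak1, a kinase, was 0.38 higher at 3 h. Of the 6 genes of the BAG family of co-chaperones, 3 were called in the F-test, with Bag5 0.44 higher at 3 h, Bag1 0.35 higher at 9 h and Bag3 0.43 higher at 3 h than at 1 h. The median difference of the BAG list at 9 h was 0.21. The shares called in the F-test in these lists, 4 of 14, 6 of 13 and 3 of 6, are to be read against the 36.3% of all gene names. Counts at 6 h and 9 h are to be read against the shares beside them. Nothing is drawn from any of these about the lists.

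For the 3 genes that were bright enough and moved most, the genes with the most similar course were sought among 11325 genes well above background on all 18 arrays, by Pearson's r over the arrays, which share scan days and scaling. Mcl1 was most like Sphk1 (0.968), Rel (0.965), which encodes a subunit of NF-κB, and Dgat1 (0.964). Among the genes most like Bcl2a1 were Ptprc (0.981), which encodes CD45, the common surface protein of white blood cells, and Ms4a6a (0.966). Bid was most like Akr1b8 (0.98), Nepro (0.979) and Heatr1 (0.976). These values describe the arrays and were not tested.

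The RefSeq promoter table for the GRCr8 build holds windows of 250 bases before and 50 after a gene's start. It gave 12 windows for 9 of the 10 genes, 4 of them for Bcl2l1. Windows were searched on both strands for AP-1 (TGANTCA), CRE (TGACGTCA), NF-κB (GGNNTTTCC) and FOXO (TGTTTAC). Of all 33469 windows 7.33% held the AP-1 letters, 1.83% the CRE, 6.05% the NF-κB and 3.78% the FOXO letters. Among the 10 genes, the AP-1 letters were found before Bcl2a1, the NF-κB letters before Mcl1, the FOXO letters before Bad and Bcl2l11, and the CRE letters before none. The bases before the start of the 2 pro-survival genes with a match are shown, with the match in capitals.
Mcl1, chr2:185907918-185908167, plus strand: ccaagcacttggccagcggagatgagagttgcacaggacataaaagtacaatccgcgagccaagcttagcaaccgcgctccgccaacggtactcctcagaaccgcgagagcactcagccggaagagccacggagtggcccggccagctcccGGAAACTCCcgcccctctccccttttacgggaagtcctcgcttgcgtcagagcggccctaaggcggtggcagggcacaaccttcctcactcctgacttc
Bcl2a1, chr8:98596556-98596805, plus strand: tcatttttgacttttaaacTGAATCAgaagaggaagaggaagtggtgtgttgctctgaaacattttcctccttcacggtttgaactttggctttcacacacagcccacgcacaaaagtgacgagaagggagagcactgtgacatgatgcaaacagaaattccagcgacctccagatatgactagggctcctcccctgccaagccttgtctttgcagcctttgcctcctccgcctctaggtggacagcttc
The match before Mcl1 reads on the minus strand and starts 99 bases before the gene, and that before Bcl2a1, whose pattern TGANTCA is matched on both strands, starts 231 bases before it. A match of letters is a description of the window, and binding was not measured here.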

How the data were processed

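RNA of proximal sciatic nerve was measured on 18 Agilent arrays, 3 for each of 6 time-points, grouped by the sample labels. Scanner output was deposited for every array (Feature Extraction 10.5.1.1 per the file headers, a version that differs from the one in the methods). Its processed signal, made by the authors, is a linear intensity with background subtracted and spatial trends removed. A deposited value matrix holds log2 levels whose quantiles are identical in all 18 columns (each with a median of 7.75), and served as an alternative. After removal of control and outlier spots, log2 processed signals were set against their array's 75th percentile and repeated spots averaged. Testing required a probe to be well above background on the 3 arrays of some time-point. limma 3.58.1 in R 4.3.3 (with data.table and statmod) was fitted to all 18 arrays, and a probe was called with P under 0.01 and Benjamini-Hochberg adjusted P under 0.05 over all probes. Figures were drawn with matplotlib. The scripts were tested on simulated data.

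Of 41012 probes, 16336 were named through an accession in the RefSeq table of the GRCr8 build and 21182 in all through an accession or listed symbol, and the rest kept their name in the files. Probe positions are those of the files on rn4. 1 gene among those most similar in course to Bcl2a1 is not reported here. The 10 genes, the lists of partners and the marker lists (Schwann cell, neutrophil, macrophage, endothelium, fibroblast, T and B cell, skeletal muscle, adipocyte, erythroid) were chosen with earlier results of these data known. Named are all 10 genes, and from the lists genes called in the F-test or needed for a count, those under a difference of 1 having been chosen after their values were seen. The comparisons of 6 h with 3 h and 9 h with 6 h, and counts by the reported probe alone, were added after the values were seen. Precision is limited by how many arrays there were and, for dim probes, by background. Replicate numbers did not pair the samples (correlations of deviations between -0.26 and 0.56). Alternatives were normexp (offset 50), a median shift, quantile normalization, the authors' matrix, other filters on dim probes and other thresholds. Fits were also made with blocks for replicate number, scan day or slide, with array weights, with a trended and robust prior, on the 6 arrays of a contrast by themselves, and without each array in turn.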

Additional observations from a re-analysis of the deposited data

Results flagged for a closer look

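For 5 genes the difference from 0 h at 3 h was not the same as that at 1 h in the reported probe, by the test of the change between these times on arrays of 1 scan day. Other probes of Bcl2l1 and Mcl1 were not called. They changed by -0.08 (Bcl2l1, start codon probe), 0.25 (Bcl2l1, coding probe) and 0.22 (second Mcl1 probe), while the second Bid probe rose by 1.55 and was called. From 1 h to 3 h the log2 signal of the reported probe rose by 0.57 ± 0.13 (SE) in Bcl2l1 (limma, adjusted P = 0.0125), 0.60 ± 0.14 in Mcl1 (0.0141), 1.20 ± 0.32 in Bcl2a1 (0.0301), 0.45 ± 0.11 in Bak1 (0.0186) and 1.19 ± 0.19 in Bid (0.0013). From 3 h to 6 h, also on 1 scan day, the reported probes of 2 genes went opposite ways, with -0.69 ± 0.13 for Bcl2l1 (limma, adjusted P = 0.0101) and 1.38 ± 0.32 for Bcl2a1 (limma, adjusted P = 0.0274).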

How the results depend on the processing

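Each of 28 calls in a reported probe was recomputed in other settings, where 314 of 375 values kept direction and call, 60 kept direction only and 1 changed sign. With 1 array left out, 443 of 504 kept both and 61 kept direction only. Mcl1 at 3 h and 6 h and Bid at 6 h and 9 h against 0 h were called in all 31 settings each.

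With background correction by normexp 3 of the 10 genes were called in the F-test (8 as reported), 1 at 0.5 h, 2 at 6 h, 3 at 9 h, 0 from 1 h to 3 h (3 at an unadjusted P under 0.05, limma) and 1 from 1 h to 6 h. Over all gene names it called 11.7% in the F-test (36.3% as reported), 0.467% at 0.5 h, 7.08% at 6 h, 10.3% at 9 h, 1.03% from 1 h to 3 h and 7.04% from 1 h to 6 h. Under normexp the median difference of all genes moved to 0.44 at 3 h against 0 h and to -0.39 from 1 h to 6 h, where Bcl2l11 changed sign (-0.75; limma, adjusted P = 0.411, range over settings 0.014 to 0.411), and Bcl2 minus Bax at 3 h went from 0.15 to 0.67. At 6 h against 0 h it gave Bcl2l11 0.29 (1.37 as reported). The cause was not tested. A shift to the median moved all genes by up to -0.16 against 0 h. Requiring a 2-fold change left 5 genes in the F-test, 0 at 0.5 h, 3 at 9 h, 2 from 1 h to 3 h and 2 from 1 h to 6 h. Only the 6 arrays of a comparison gave 1 at 0.5 h, 2 at 1 h, 3 at 6 h, 1 from 1 h to 3 h and 3 from 1 h to 6 h. At 0.5 h quantile normalization, the deposited matrix and the reported probe alone gave 1 each (2 as reported). At 1 h array weights and probes well above background on all 18 arrays gave 2 each (1 as reported). With the replicate number as a block (replicate block), which is no pairing here, 2 genes were called at 1 h, and no other count moved by over 1.5 times. With 1 array left out the counts ran from 1 to 2 at 0.5 h, 1 to 2 at 1 h, 2 to 6 from 1 h to 3 h (2 without replicate 3 of 3 h, 3 without replicate 1 or 3 of 1 h) and 3 to 6 from 1 h to 6 h (3 without replicate 1 of 1 h). They ran from 6 to 8 in the F-test, 5 to 6 at 6 h and 4 to 7 at 9 h (4 without replicate 2 or 3 of 0 h) and stayed at 4 at 3 h. From 3 h to 6 h, recomputed after the values were seen, 2 genes were called as reported, 1 with a 2-fold limit, 0 by normexp (3 at an unadjusted P under 0.05, limma), 0 on the 6 arrays alone (4) and 1 to 2 with 1 array left out, where Bcl2a1 ranged from 0.58 to 1.77 over all settings. Signal over background limits Bcl2l11, which was well above background on 8 of 18 arrays.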

Other observations

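Cell types other than those named above were read from their own lists. All 6 fibroblast genes were called in the F-test (36.3% of all gene names) and 5 were lower at 9 h than at 0 h (15.9% of all gene names), with Col3a1, a collagen of connective tissue, at -0.63 on the log2 scale and the list's median at -0.52. Of 8 endothelial genes 3 were called in the F-test, a share near that of all gene names, and Cldn5, a tight junction protein of vessels, was 0.56 lower at 9 h (a difference of -0.56). Of 4 tested genes of T and B cells 2 were called in the F-test (36.3% of all gene names), with Cd2 2.29 higher at 9 h. Well above background on all arrays of a time-point were 3 of the 4 at 0 h, 1 at 0.5 h, 1 h and 3 h, 2 at 6 h and 4 at 9 h. Some could thus enter the test through a group where they were high, and no rise is drawn from these values. None of 8 skeletal muscle, 4 adipocyte and 3 erythroid genes was called in limma's F-test, where 0, 1 and 0 of them had an unadjusted P-value under 0.05, and the spread between arrays was wide. The summed muscle signal was 72.5 to 1260 on the arrays of 0 h, 41.7 to 95.9 at 0.5 h and 1.11 to 105 at 9 h, and the median difference of the muscle list from 0 h lay between -1.82 and -4.71 on the log2 scale at the 5 later times.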
